A study of Mus musculus with 84 samples.

Results

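The genes described here are 38 activity-regulated immediate early genes, taken by symbol from a table of 43629 genes with counts from the mouse amygdala's central nucleus (CeA). All 38 had enough counts to be among the 16320 genes tested. The 84 animals, 43 females and 41 males, were HS-CC mice, an outbred stock derived from the founder strains of the Collaborative Cross. Each was given a choice between water and 10% ethanol for 13 weeks from a median age of 15 weeks, after first being offered ethanol at 5% and then at 10% to get used to it. Every animal in these samples thus had ethanol to drink, and no group drank water alone. Each animal gave 1 library, and the groups were the sexes, each animal's weekly preference (the share of all fluid drunk that came from the ethanol tube), and 4 runs of the sample-sheet numbers in the titles.

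The labels state that the mice were killed in 4 passes between 10 AM and 2 PM, with ethanol available until then, but not which mouse was in which pass. In ascending order the numbers fall into 4 runs with 18, 18, 17 and 31 libraries, here called runs 1 to 4. These runs are a grouping of the numbers alone, and what they stand for is not given in the sources used here. Run 1 held 9 females and 9 males, run 2 held 9 and 9, run 3 held 10 and 7, and run 4 held 15 and 16. Up to 3 animals came from a family. Family and sequencing lane are not given per animal and are in no fit, so some animals were relatives that the tests treat as unrelated.

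Immediate early genes are switched on within minutes of a neuron's firing, without new protein synthesis. Calcium and cyclic AMP signals reach their promoters through kinases that act on the transcription factors CREB, SRF and MEF2, and the transcripts last for a short time. In the CeA, whose neurons are mostly inhibitory and act in fear, stress and ethanol drinking, Fos protein and RNA are widely used as marks of recently active cells. The level of these RNAs at death reflects the time just before it, whereas week 1 of drinking lay at the start of the trial.

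The sequences just upstream of 6 of the genes are shown. All 6 hold a short cyclic AMP response element (CRE) motif, the site of CREB, and all 6 differed over the runs as described later. Whether the motif goes with those differences was not tested. RefSeq promoter windows on GRCm38.p6 were matched for 29 of the 38 genes, and the 250 bases before each start site were searched on both strands. The core motif TGACG was found before 21 of the 29 genes (72.4%), against 19.8% of the 27025 genes in the RefSeq table. The full palindrome TGACGTCA, which also counts as a core, lay before 6 of the 29 (20.7%), against 1.77% of all. Of these, Arl5b, Btg2 and Dusp1 differed over the runs by the test used below, and Arl4d, Maff and Plk2 did not. Neither did Csrnp1, Nr4a2 and Nr4a3, which hold the core alone. An EGR site, GCGNGGGCG, stood before 11 (37.9% against 5.33%), and a CArG box, the motif bound by SRF, before 2 (6.9% against 1.62%), Dusp5 and Egr2. The AP-1 site TGANTCA was found before 1 gene (3.45% against 7.82%) and TATAAA before 4 (13.8% against 14.3%). A match of letters is a description of the window and not of binding.

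In the windows below, written 5′ to 3′ on the gene's own strand, capitals mark the CRE core or, in Dusp1, the full CRE (CGTCA is the core on the other strand). Fos lies on chr12:85473640-85473889 (plus strand), with 2 cores on that strand. Junb lies on chr8:84978749-84978998 (minus), Egr4 on chr6:85513590-85513839 (minus) and Nr4a1 on chr15:101266596-101266845 (plus). Nr4a1 holds 4 cores, all on the other strand. Dusp1 lies on chr17:26508520-26508722 (minus), with the full CRE and a further core. Rgs2 lies on chr1:144004162-144004399 (minus). The windows of Dusp1 and Rgs2 were trimmed where the count table's gene span reaches further upstream.
Fos: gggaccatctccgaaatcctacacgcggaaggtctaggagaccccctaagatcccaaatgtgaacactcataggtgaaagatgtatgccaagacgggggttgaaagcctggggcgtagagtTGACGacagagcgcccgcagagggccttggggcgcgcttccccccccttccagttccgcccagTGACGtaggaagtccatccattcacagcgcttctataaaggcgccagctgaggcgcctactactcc
Junb: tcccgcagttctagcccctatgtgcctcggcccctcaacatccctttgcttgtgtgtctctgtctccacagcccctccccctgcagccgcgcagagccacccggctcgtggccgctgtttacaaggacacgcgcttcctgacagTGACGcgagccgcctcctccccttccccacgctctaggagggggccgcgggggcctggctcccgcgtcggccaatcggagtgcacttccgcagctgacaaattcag
Egr4: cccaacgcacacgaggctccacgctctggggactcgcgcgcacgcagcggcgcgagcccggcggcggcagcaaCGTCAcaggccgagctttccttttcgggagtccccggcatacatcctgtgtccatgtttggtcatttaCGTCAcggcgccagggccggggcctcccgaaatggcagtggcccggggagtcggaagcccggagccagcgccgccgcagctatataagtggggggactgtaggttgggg
Nr4a1: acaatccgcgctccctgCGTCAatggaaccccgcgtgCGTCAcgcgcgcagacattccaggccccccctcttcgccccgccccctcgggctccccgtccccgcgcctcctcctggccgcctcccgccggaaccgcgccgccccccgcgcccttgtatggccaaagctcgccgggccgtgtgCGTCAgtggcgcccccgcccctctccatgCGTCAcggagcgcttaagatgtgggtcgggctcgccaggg
Dusp1: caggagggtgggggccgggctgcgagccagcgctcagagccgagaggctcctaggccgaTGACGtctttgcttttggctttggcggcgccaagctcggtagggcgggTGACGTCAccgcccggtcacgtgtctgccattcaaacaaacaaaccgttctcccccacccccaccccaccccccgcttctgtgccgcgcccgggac
Rgs2: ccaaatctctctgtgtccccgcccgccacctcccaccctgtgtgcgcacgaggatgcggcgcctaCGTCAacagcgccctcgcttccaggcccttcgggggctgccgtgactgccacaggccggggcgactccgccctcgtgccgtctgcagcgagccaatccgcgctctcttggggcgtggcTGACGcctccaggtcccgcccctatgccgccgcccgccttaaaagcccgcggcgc

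All 38 RNAs were counted in each of the 84 libraries, at levels that ranged widely between genes and between animals. Library totals ran from 24118965 to 42036566 counts with a median of 31573088.5, and levels are given as CPM (counts scaled to a common library total). Compared per kb of exon, the highest median level was that of Vgf, a secreted neuropeptide precursor, at 117 CPM per kb. Plk2, a kinase that acts on synaptic strength, followed at 68.6, and Junb, an AP-1 subunit, at 46.1. Egr1, a zinc finger factor, was at 41.0 CPM per kb and Arc, a synaptic protein that takes part in receptor uptake, at 36.6. The lowest were the stress-responsive factor Atf3 at 0.431 and Maff, a small Maf protein, at 0.568 CPM per kb.

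The 38 genes varied more between animals than most genes did. The median SD of their log2 CPM was 0.603, against 0.318 over all genes tested, and 35 of the 38 lay above that figure. Runs accounted for a median of 17.8% of the variance left after sex, against 7.19% over all genes, from 1.71% for Vgf to 37.1% for Dusp1. The genes were also short: the median span was 5709 bases against 21924, with 34 of the 38 below the latter. Egr2 ranged over 77.7-fold, from 0.472 CPM in male replicate 15 to 36.7 CPM in female replicate 5. Male replicate 15 was the lowest of all libraries for 11 of the 38 genes and female replicate 5 the highest for 8. Male replicate 39 was the highest for 7 (Fosb, Ier5, Csrnp1, Gadd45b, Pim1, Rgs2 and Nptx2). That animal was not high throughout: of 84 it ranked 72 for Nr4a1, 79 for Dusp1 and 83 for Klf4.

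Across the runs the immediate early genes differed as a group, and most were highest in run 1. With sex as a term, edgeR's quasi-likelihood test over the 4 runs, with Benjamini-Hochberg adjustment over all genes tested, called 27 of the 38, against 21.7% of all genes. Called and lower in run 4 than in run 1 were 26 of the 38, against 9.34% of all genes tested. The other 1 called, Rgs2, was higher. Counts by role in the paragraphs below are read against these same shares. The median difference between run 4 and run 1 was -0.56 on the log2 scale over the 38 genes and 0.02 over all genes tested.

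The AP-1 genes encode leucine zipper proteins that pair to bind DNA, and 7 of the 8 members in that group were called, all lower in run 4. Fos (ENSMUSG00000021250, chr12:85473890-85477273) had CPM of 16.0 to 80.4 with a median of 50.1 in run 1, and 13.1 to 80.4 with a median of 27.3 in run 2. In run 3 it ranged from 5.97 to 50.8 with a median of 24.8, and in run 4 from 6.94 to 58.8 with a median of 19.1. The ranges overlapped, but 28 of the 31 run 4 libraries lay below the median of run 1. Fos fell by 1.05 ± 0.21 (SE) on the log2 scale from run 1 to run 4, with an adjusted p of 0.00163 over the runs.

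Junb (ENSMUSG00000052837, chr8:84976909-84978748) had run medians of 144, 96.5, 73.8 and 74.7 CPM. Its ranges were 77.2 to 256 in run 1, 30.5 to 200 in run 2, 48.9 to 139 in run 3 and 39.2 to 170 in run 4. Thus 18 of the 31 run 4 libraries were below every run 1 library. The difference of run 4 from run 1 was -0.80 ± 0.15 (SE), with an adjusted p of 0.000369. Fosb, whose truncated product ΔFosB builds up with repeated drug exposure, had run medians of 24.5, 18.2, 17.7 and 14.3 CPM, and its highest value, 61.3 CPM, was that of male replicate 39 in run 4. Its difference of -0.57 ± 0.17 (SE) had an adjusted p of 0.046, and without male replicate 39 it was -0.71, with an adjusted p of 0.00532. Jun, Fosl2, Atf3 and Nfil3 were also called, at -0.68, -0.66, -0.70 and -0.27, whereas Maff was not, at -0.17 ± 0.16 (SE) and an adjusted p of 0.102.

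**Figure D1:**
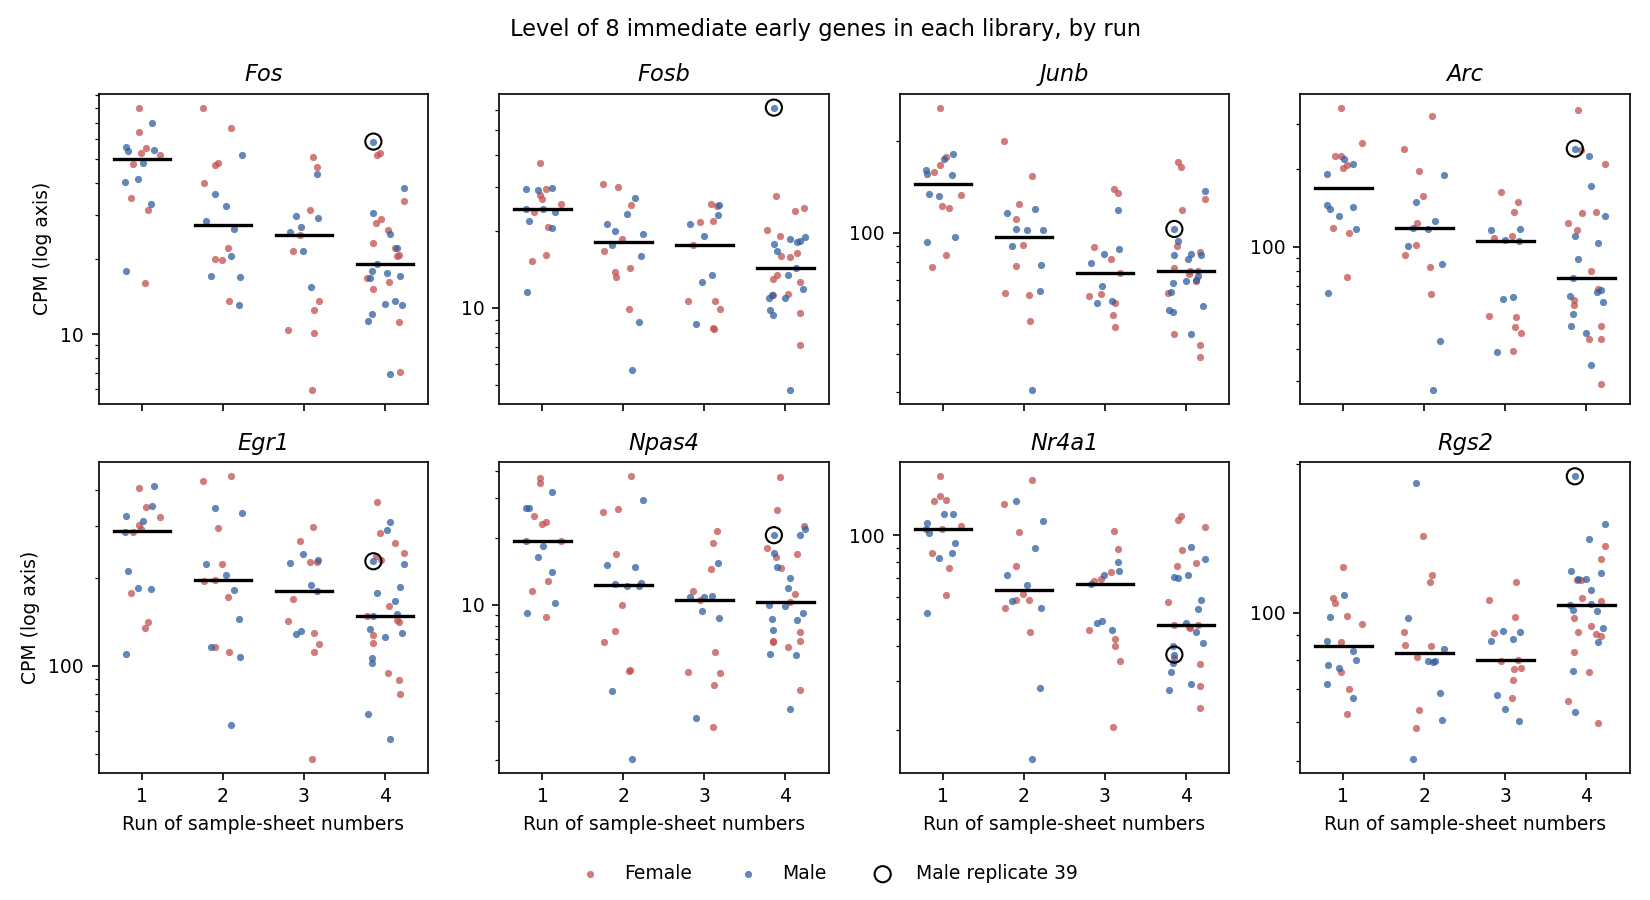
CPM of Fos, Fosb, Junb, Arc, Egr1, Npas4, Nr4a1 and Rgs2 on log axes in each of the 84 libraries, by run of sample-sheet numbers. Points are libraries, coloured by sex, black lines are run medians and the ring is male replicate 39. Medians are highest in run 1 for the first 7 genes (Fos 50.1 CPM, against 19.1 in run 4) and in run 4 for Rgs2 (104 CPM).

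Of the EGR zinc finger factors and Klf4, which bind GC-rich promoter sites, 4 of 5 were called lower. Egr4 (ENSMUSG00000071341, chr6:85511131-85513589) had run medians of 73.7, 46.0, 37.6 and 40.9 CPM. All 31 run 4 libraries were below the run 1 median, and 11 of 18 run 1 libraries exceeded the highest of run 4, 68.4 CPM. Its difference of -0.90 ± 0.16 (SE) had an adjusted p of 0.000266. For Egr2, a regulator of myelin genes in the periphery and activity-induced in neurons, the medians were 16.4, 8.59, 7.98 and 6.43 CPM. Egr2 showed the largest difference among the 38 genes, at -1.30 ± 0.26 (SE) with an adjusted p of 0.00148. Egr1 had medians of 290, 196, 180 and 148.5 CPM, with ranges of 109 to 410 in run 1 and 56.5 to 362 in run 4. Its difference was -0.63 ± 0.18 (SE), with an adjusted p of 0.0341. Egr3 was not called over the runs, at -0.56 ± 0.20 (SE) and an adjusted p of 0.146.

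Klf4, a pluripotency factor that also responds to activity, followed another order. Its run medians were 5.24, 4.72, 5.16 and 3.28 CPM, so run 4 alone was low. It was the sole member called between runs 4 and 2, at -0.54 ± 0.13 (SE) and an adjusted p of 0.0489, and led those called between runs 4 and 3, at -0.65 ± 0.13 (SE) and an adjusted p of 0.00129.

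Among the NR4A nuclear receptors, which act without a known ligand, and Npas4, a factor that neurons induce by calcium entry alone, 2 of 4 were called. Nr4a1 (ENSMUSG00000023034, chr15:101266846-101274792) had run medians of 105, 63.7, 66.6 and 47.6 CPM. Its ranges were 52.7 to 162.4 in run 1 and 24.1 to 117 in run 4, and 17 of 31 run 4 libraries lay below all of run 1. The difference was -0.85 ± 0.17 (SE), with an adjusted p of 0.00173. Npas4 (ENSMUSG00000045903, chr19:4984355-4989971) had medians of 19.4, 12.2, 10.5 and 10.3 CPM and ranges of 8.83 to 37 in run 1 and 3.40 to 37.3 in run 4. Its difference of -0.67 ± 0.24 (SE) had an adjusted p of 0.0202. Nr4a3 and Nr4a2 had differences of -0.64 ± 0.21 (SE) and -0.34 ± 0.29 (SE), with adjusted p of 0.0769 and 0.323.

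The dual-specificity phosphatases, which switch off MAP kinases and so limit the response, were the group in which all members (4 of 4) were called. Dusp1 (ENSMUSG00000024190, chr17:26505590-26508519) had run medians of 43.1, 29.6, 27.2 and 22.2 CPM. In run 4, 20 of 31 libraries were below every run 1 library. It had the smallest adjusted p of the 38, 7.4e-05, with a difference of -0.83 ± 0.13 (SE). Dusp4 had medians of 14.8, 9.70, 8.48 and 6.24 CPM, and 23 of the 31 run 4 libraries lay below the run 1 range. It differed by -1.01 ± 0.18 (SE), with an adjusted p of 0.000806. Dusp6 and Dusp5 had differences of -0.58 ± 0.13 (SE) and -0.48 ± 0.17 (SE), with adjusted p of 0.00601 and 0.0226.

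Of 7 other nuclear early response genes, 4 were called. These were Btg2, an antiproliferative adaptor (-0.80 ± 0.16 SE, adjusted p 0.0013), Gadd45b and Gadd45g, which take part in DNA demethylation and stress signalling (-0.47 and -0.27), and Ier2 (-0.51). Csrnp1, Ier5 and Tiparp, an ADP-ribosyltransferase, were not called, at -0.33, -0.21 and -0.16. Of the kinases, the pseudokinase Trib1 and small signalling proteins, 4 were called lower: Trib1 (-0.54), Pim1 (-0.63), Sik1 (-0.36) and Arl5b (-0.29). Plk2 and Arl4d were not called, at -0.23 and -0.20. Among the effectors that act at synapses or are secreted, Arc (ENSMUSG00000022602, chr15:74669083-74672570) was the member called of 3. Its run medians were 168.3, 118, 105 and 75.3 CPM and its ranges 65.9 to 347 in run 1 and 29.2 to 339 in run 4. It differed by -0.68 ± 0.23 (SE), with an adjusted p of 0.0189. Nptx2, a secreted pentraxin that clusters AMPA receptors, and Vgf had -0.35 ± 0.26 (SE) and -0.07 ± 0.08 (SE), and without male replicate 39 Nptx2 had -0.67.

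Rgs2, which shortens G protein signals, was the member called over the runs that was not lower in run 4. Its run medians were 85.4, 82.7, 80.0 and 104 CPM, with a range of 62.3 to 124 in run 1. In run 4 the lowest value was 59.6 CPM and the highest was that of male replicate 39, and the runs overlapped. It was 0.26 ± 0.11 (SE) higher in run 4 than in run 1, with an adjusted p of 0.0451 over the runs. Between runs 4 and 1 alone it was not called (adjusted p 0.074), and with the 2 transporters described later as terms the difference was 0.07. The call over the runs was lost without male replicate 39 (0.23, adjusted p 0.0811, in a fit that called 27 of the 38 and 20.7% of all genes), as it was with limma-voom and with no filter on low counts.

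**Figure D2:**
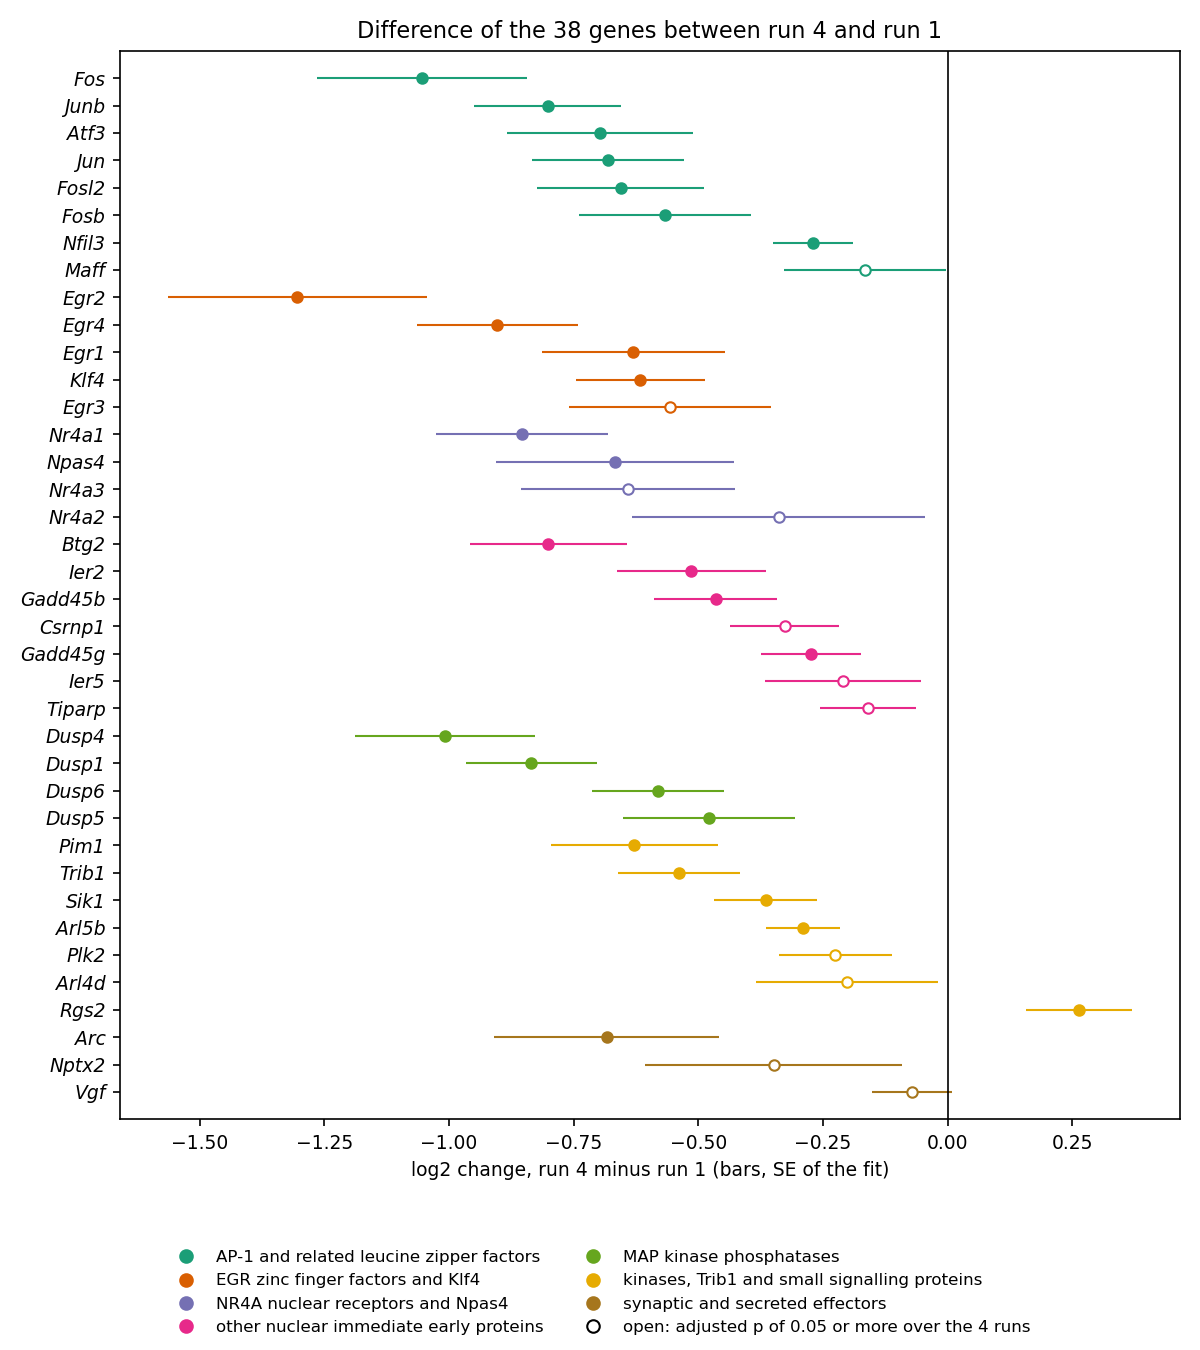
Log2 change of each of the 38 genes, run 4 minus run 1, with SE of the fit as bars, coloured and grouped by role. Filled points were called over the 4 runs. All the genes but Rgs2 (0.26) lie left of 0, from -0.07 for Vgf to -1.30 for Egr2.

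Most of the calls were between run 1 and runs 3 and 4. Between runs 2 and 1, 3 of the 38 genes were called (Junb, Trib1 and Dusp1, all lower), against 4.41% of all genes and 1.96% called lower, and the median difference was -0.33. Between runs 3 and 1, 16 were called, all lower, against 12.1% of all genes and 5.81% called lower, with a median of -0.51. Between runs 4 and 1, 29 were called, all lower, against 16.3% of all genes and 7.64% called lower. Between runs 3 and 2 edgeR called 0, against 0.0123% of all genes, and 3 had an unadjusted p under 0.05, against 3.98%, with a median of -0.15. Between runs 4 and 2 it called Klf4 alone, against 0.257%. There 12 had an unadjusted p under 0.05, against 16.3%, 33 of the 38 were lower in run 4, and the median was -0.22. Between runs 4 and 3, Klf4, Dusp4 and Maff were lower and Rgs2 higher, against 8.72%, and the median was -0.04. Contrasts that share a run share its libraries.

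Within each sex, 1 of the 38 differences of run 4 from run 1 was positive. In females alone the median difference was -0.54, with 0 members called by edgeR against 0.0184% of all genes, and 17 at an unadjusted p under 0.05 against 16% of all genes. In males alone it was -0.54, with 6 called (Fos, Junb, Jun, Egr4, Btg2 and Dusp1) against 1.21% of all genes, and 23 at an unadjusted p under 0.05 against 22.8%. The test of the difference of the run effect between the sexes called 0 members and 0 genes, with 1 member (Vgf) and 2.57% of all genes at an unadjusted p under 0.05. Week 1 preference by run had means of 0.259 ± 0.177 (SD, n = 18), 0.24 ± 0.171 (SD, n = 18), 0.15 ± 0.144 (SD, n = 17) and 0.179 ± 0.175 (SD, n = 31), and its difference between runs was not tested. With it as a further term 22 of the 38 were called, against 19.9% of all genes, and the median was -0.54.

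Other genes moved over the runs as well, and their part in the differences of the 38 genes was not tested. Later fits with 2 transporters as terms show how the values changed and do not test that part. In the counts here, higher and lower mean run 4 against run 1. They are read against the 21.7% of all genes called over the runs, and 37.8% at an unadjusted p under 0.05. Of 14 CeA neuron markers 11 were called, all higher, and their summed level had run medians of 1487, 2028, 2200 and 2400 CPM over a range of 1181 to 4323. Prkcd, which marks a class of CeA neurons, had medians of 10.0, 16.1, 18.6 and 32.7 CPM (1.37 ± 0.26 SE). Slc32a1, the vesicular GABA transporter, had 160.6, 237.1, 272.5 and 241.1 CPM. Of 13 cortical and basolateral excitatory markers edgeR called 0 and 2 had an unadjusted p under 0.05, and their sum had run medians of 3896, 3195, 2961 and 2809 CPM (range 805 to 4521). Oligodendrocyte markers were called in 3 of 8 (all higher) and nuclear-retained RNAs in 5 of 8 (all higher, Meg3 by 0.58 and Neat1 by 0.72). Of the striatal, choroid plexus, microglial and astrocyte markers edgeR called 0 of 10, 0 of 10, 0 of 9 and 0 of 8, and 0, 0, 1 and 0 had an unadjusted p under 0.05. Choroid plexus RNA was nevertheless uneven, with a summed level of 8.43 to 24445 CPM. Its run medians were 34.2, 42.9, 54.0 and 667.4 CPM, and all 10 markers were higher in run 4. Of 10 endothelial and mural markers 2 were called (Pdgfrb and Abcb1a, both lower), near the share of all genes. In bulk tissue, fewer cells of a type and less RNA per cell cannot be told apart.

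Slc17a7, the vesicular glutamate transporter of cortical and basolateral excitatory neurons, varied widely between libraries. It ranged from 13.0 to 2404 CPM with a median of 1359, and the run medians were 1923, 1468, 1343 and 1099. In 9 libraries it was below 300 CPM (13.0 to 249.3), and the next was at 471. The threshold of 300 was set in that gap after the values were seen. In the same 9 libraries Slc32a1 was at 338.2 to 514.2 CPM, against a median of 219.9 over all libraries. How much neighbouring tissue each library held was not tested, so the levels are those of the dissected tissue as a whole. Of these 9 libraries, 8 were among the 20 with the lowest mean z-score of the 38 genes. By run they numbered 1, 2, 3 and 3. Without them, 27 of the 38 genes were called over the runs, against 24.1% of all genes, with a median of -0.52. Fosb (-0.52, adjusted p 0.0549) and Pim1 (-0.59, adjusted p 0.0552) lost their calls with differences about as large, and Csrnp1 (-0.34) and Nr4a3 (-0.60) gained one.

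Over the 84 animals, Spearman's rho with Slc17a7 was above 0.5 for 23 of the 38 genes (60.5%), against 9.14% of the other genes. The median rho was 0.55, from -0.45 for Rgs2 to 0.79 for Dusp6, with Nptx2 at 0.78, Jun at 0.72, Fos at 0.45 and Atf3 at 0.16. Without the 9 libraries the median was 0.44, with 12 genes above 0.5 (31.6% against 5.74%). On residuals from sex and run it was 0.43. With Slc32a1 the median rho was -0.38, and without the 9 libraries -0.26. All these values are over the same libraries and share their scaling. With the log2 CPM of both transporters as further terms, 22 of the 38 genes were called over the runs, against 21.5% of all genes, with a median of -0.43. Fosb (-0.48), Npas4 (-0.50), Ier2 (-0.40), Gadd45g (-0.19), Nfil3 (-0.20) and Dusp5 (-0.19) lost their calls and Egr3 (-0.57) gained one. Of these differences, that of Dusp5 was over 1.5 times smaller than without the transporters. So were those of Jun (-0.35, adjusted p 0.033) and Rgs2 (0.07, adjusted p 0.0138 over the runs), which were still called.

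Other genes of the pathway are read against the same 21.7% of all genes called over the runs. Of 26 other activity-regulated genes 8 were called, with a median difference of -0.11. Lower were Jund (-0.35), Per1, a clock gene with CREs (-0.46), Spry4 (-0.30), Ptgs2 (-0.96) and Cyr61 (-0.46), and Scg2, a granin, was higher (0.87). Sst and Rheb, the others called, were also higher in run 4, by smaller differences, so 3 of the 8 were higher and 5 lower. Bdnf, the activity-dependent neurotrophin, had medians of 39.4, 26.6, 27 and 27.3 CPM and a difference of -0.37 ± 0.24 (SE) with an adjusted p of 0.277. Of 32 kinases and transcription factors upstream of them 6 were called, with a median of -0.07; Camk2a, a calcium-activated kinase of excitatory neurons, differed by -0.56 ± 0.14 (SE), Mapk3 (ERK1) by -0.30 and Crtc2, a CREB coactivator, by 0.23. Of 15 clock genes 3 were called (Per1 lower, Per3 and Bhlhe41 higher), of 14 glucocorticoid-responsive genes 2 (Per1 lower, Plin4 higher) and of 8 heat shock genes 1, Dnajb1 (-0.43). The shares of the upstream, clock, glucocorticoid-responsive and heat shock lists were all below that of all genes.

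The 38 genes also rose and fell together from animal to animal. Over the 703 pairs the median Spearman's rho was 0.45 (quartiles 0.24 and 0.61), and 309 pairs (44%) were above 0.5, against 3.15% of all pairs of genes tested. A smaller number, 69, were negative. On residuals from sex and run the median was 0.36, with 31% of pairs above 0.5 against 2.98%. Within the runs the medians were 0.30, 0.46, 0.45 and 0.30. On residuals from sex, run and both transporters it was 0.25, with 135 pairs (19.2%) above 0.5 against 2.49%, and without the 9 libraries low in Slc17a7 it was 0.41. These are counts over pairs that share animals and libraries.

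Of the 5 closest pairs, all but Egr2 and Egr4 joined different families. Nr4a1 and Dusp1 had rho = 0.93 and Pearson's r = 0.91, each with a permutation p of 1e-05, the smallest that 100000 orders can give. Over the 703 pairs computed, the Benjamini-Hochberg adjusted p was 2.1e-05 for rho and 2.18e-05 for r. Without the 2 animals farthest from the median of Nr4a1, r was 0.92, and within runs 1 to 4 it was 0.88, 0.89, 0.93 and 0.87. Junb and Egr4 followed with rho = 0.92 and r = 0.92 (0.91 without 2 animals, and 0.83, 0.94, 0.86 and 0.88 within runs). Egr2 and Egr4, Egr2 and Nr4a1, and Junb and Egr2 had rho of 0.91, 0.90 and 0.90, and r of 0.92, 0.91 and 0.89. The same permutation p and adjusted p held for these 4 pairs. Within each run, r was positive for all 5 pairs.

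Rgs2 was in 2 of the 3 lowest pairs. Jun and Rgs2 had rho = -0.58 and r = -0.53 (both permutation p 1e-05, the smallest possible, adjusted 2.1e-05 and 2.18e-05). Without 2 animals r was -0.52, and within the runs it was -0.64, -0.62, -0.56 and -0.40. Nr4a3 and Rgs2 had rho = -0.40 (permutation p 0.00014, adjusted 0.000248) and r = -0.36 (0.00076, adjusted 0.0012). Maff and Nr4a2 had rho = -0.38 (permutation p 0.00028, adjusted 0.000473) and r = -0.37 (0.00044, adjusted 0.000724). For these pairs r without 2 animals was -0.40 and -0.33, and all values within runs were negative.

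By gene, the median rho with the other members was highest for Dusp6 (0.67), Fosb (0.66) and Egr4 (0.63). It was 0.55 for Fos, 0.61 for Arc and 0.58 for both Junb and Egr1. It was low for Klf4 (0.20), Vgf (0.19) and Tiparp (0.17), and below 0 for Maff (-0.02) and Rgs2 (-0.10). By role, the median was 0.60 within the phosphatases, 0.57 within the EGR group, and 0.63 between these groups. The kinases, Trib1 and small signalling proteins had a median of 0.32 among themselves.

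**Figure D3:**
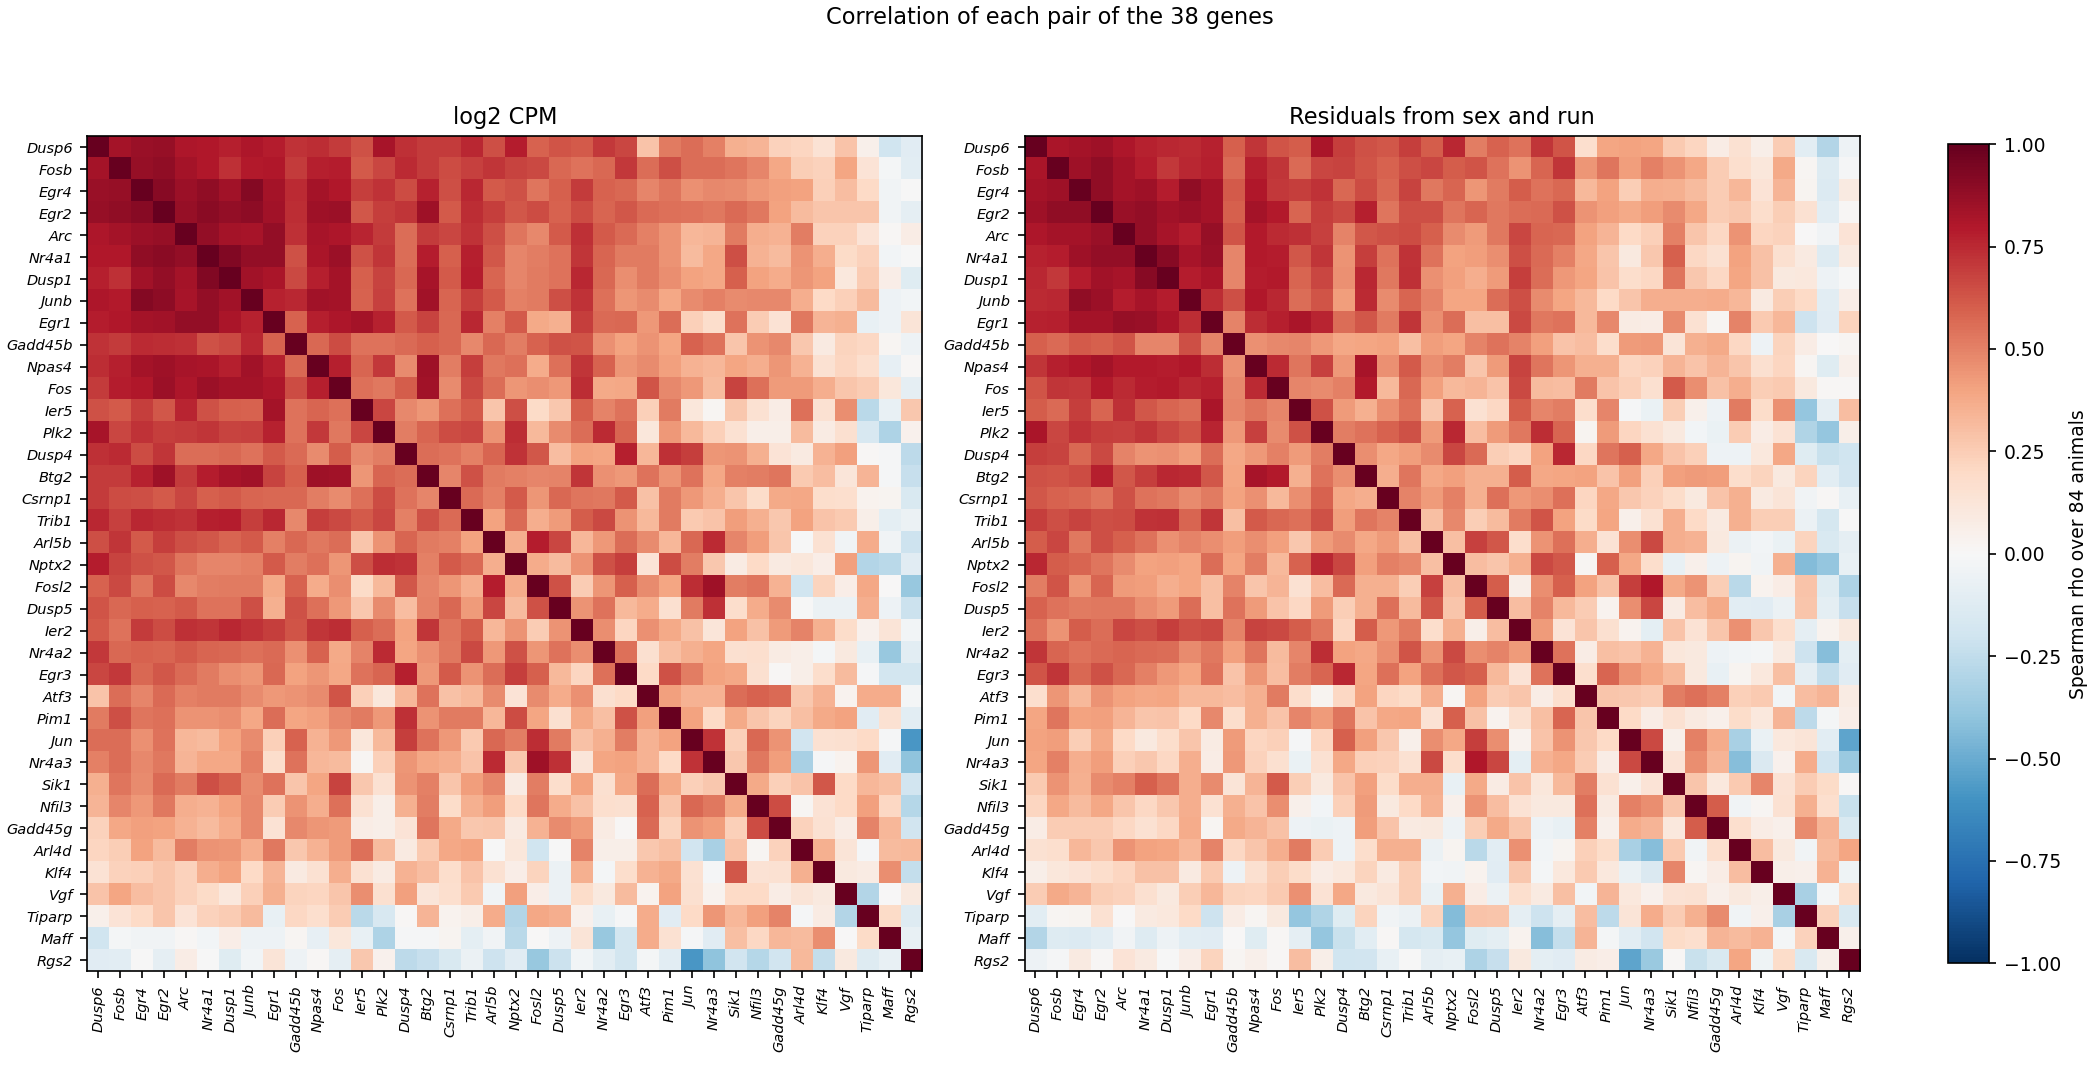
Spearman's rho over the 84 animals for each pair of the 38 genes, on log2 CPM at left and on residuals from sex and run at right, with genes ordered by their median rho. Red is positive and blue negative. Most pairs are red in both panels, and pale or blue cells are not confined to Maff and Rgs2. Of the 703 pairs, 69 are negative at left and 87 at right. The median rho is 0.45 at left and 0.36 at right.

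A mean z-score of the 38 genes summarised each library. Its run medians were 0.74, -0.01, 0.03 and -0.33, and of the 10 highest libraries 8 were in run 1 and 2 in run 2. The lowest 10 held 0 of run 1, 1 of run 2, 4 of run 3 and 5 of run 4. The genes outside the list with the highest rho with this score over the 84 libraries were Dnajb5 (0.85), Grasp (0.80), Midn (0.79), Vps37b (0.78), 1700016P03Rik (0.78), Fam212b (0.77), Per1 (0.76), Dusp7 (0.75), Nab2 (0.74) and Ptpn1 (0.74). On residuals from sex and run these 10 values lay between 0.65 for Vps37b and 0.81 for Dnajb5. Nab2 encodes a corepressor of EGR proteins and Dusp7 another MAP kinase phosphatase.

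The design asked whether expression goes with ethanol preference. For preference in week 1, with sex and run as terms, edgeR called 0 of the 38 genes, against 0.0245% of all genes, and 5 had an unadjusted p under 0.05, where 2.55% of all genes did. DESeq2 and limma-voom also called 0, against 0.0245% and 0% of all genes. Each had 5 members at an unadjusted p under 0.05, against 2.78% and 2.31% of all genes. Slopes are log2 changes for a rise of 0.5 in preference, and 31 of the 38 were positive with a median of 0.12, against 9e-04 over all genes. In simulated counts without run or sex effects, slopes of 1 and 2 in size were each given to 100 genes drawn from all those tested. Of these, 81% and 99% were called. The 38 genes varied more than most genes, so these shares are not theirs and set no limit for them. All 38 slopes measured were below 1.

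The 3 members with the smallest p were Fosb, Pim1 and Nptx2. Fosb had a slope of 0.58 ± 0.18 (SE, unadjusted p 0.00196), Pim1, a survival kinase, 0.55 ± 0.18 (SE, 0.00248) and Nptx2 0.78 ± 0.26 (SE, 0.00386), all with an adjusted p of 1. Each was smaller without male replicate 39, which had a week 1 preference of 0.633 and the highest level of all 3. Its values were 61.3 CPM of Fosb, 13.3 of Pim1 and 479 of Nptx2, against medians of 18, 3.43 and 57.4. Without that animal the slopes were 0.25 ± 0.19 (SE), 0.07 ± 0.17 (SE) and -0.08 ± 0.28 (SE). Then 0 members and 0 genes were called, 0 members and 1.4% of all genes had an unadjusted p under 0.05, 24 slopes were positive and the median was 0.04.

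Of the other well-known genes, Fos had a slope of 0.45 ± 0.23 (SE, unadjusted p 0.0563) and Arc 0.36 ± 0.26 (SE, 0.173). Without male replicate 39 these were 0.24 ± 0.25 (SE, 0.329) and 0.16 ± 0.28 (SE, 0.582). Egr1 had 0.25 ± 0.22 (SE) and Junb 0.15 ± 0.17 (SE). Npas4 had 0.23 ± 0.27 (SE) and Nr4a1 0.13 ± 0.21 (SE), which were 0.14 and 0.20 without that animal. Klf4 had the lowest slope, -0.27 ± 0.15 (SE, unadjusted p 0.0777). With 0 members called, none of these slopes was told from 0 at this number of animals. Without the run term 0 were called, against 0.0306% of all genes, and 15 had an unadjusted p under 0.05, against 3.25%, with 35 positive and a median of 0.26.

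**Figure D4:**
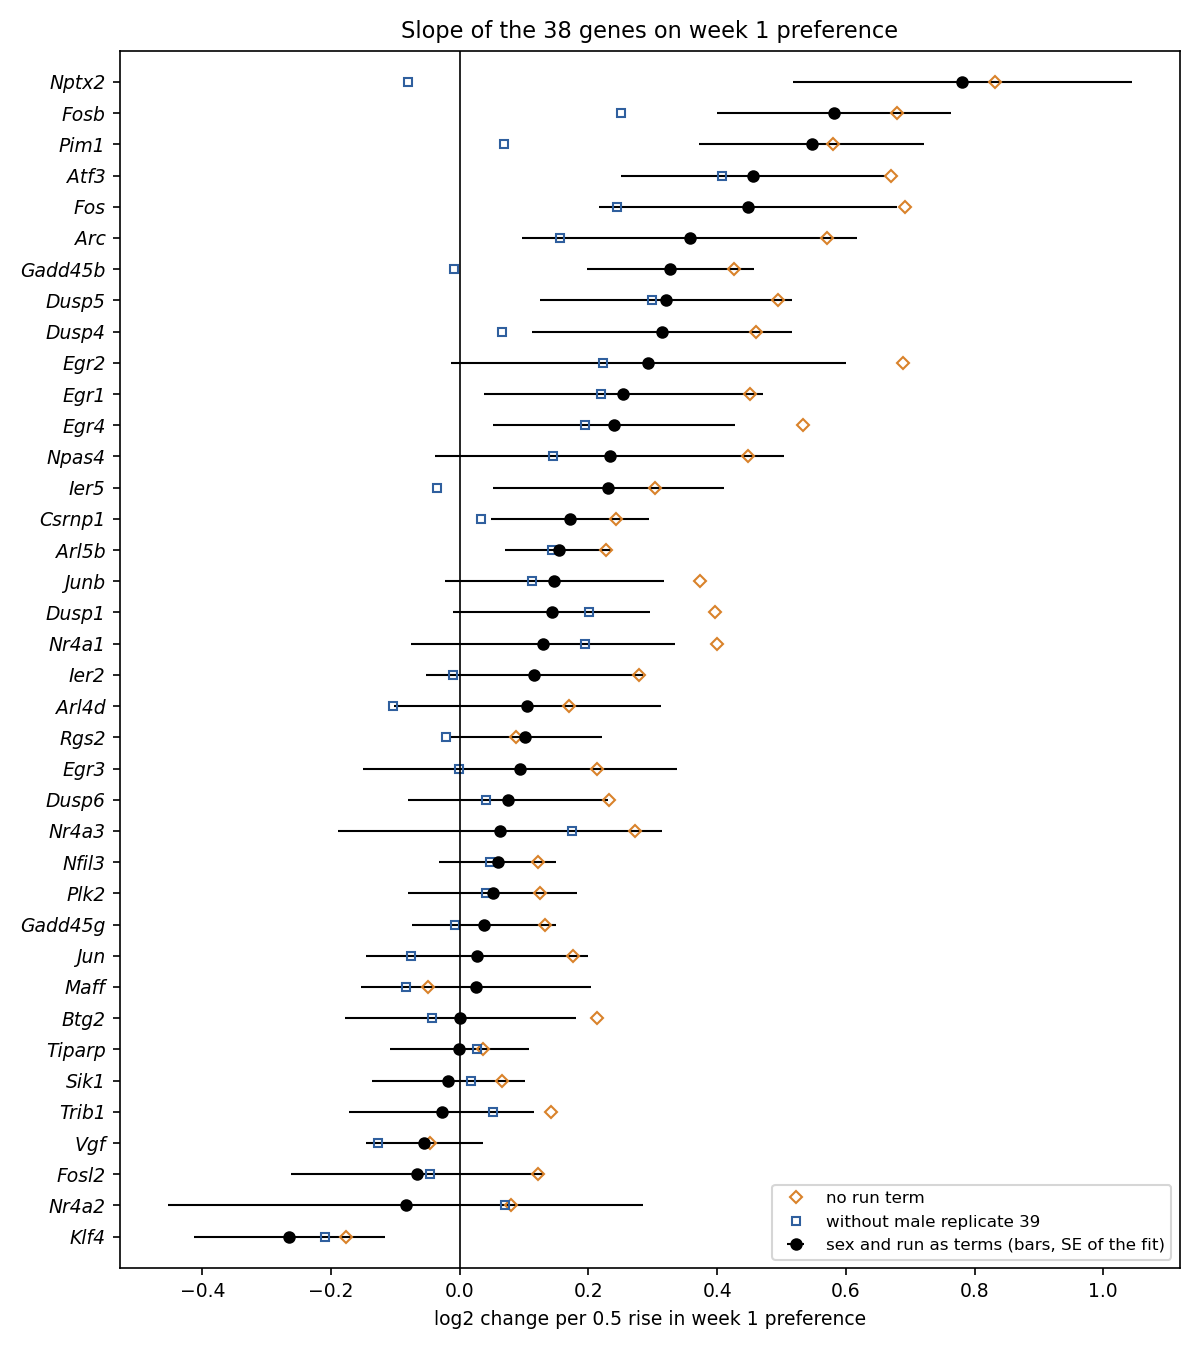
Slope of each of the 38 genes on week 1 preference, as log2 change per 0.5 rise. Black points have sex and run as terms, with SE as bars, orange diamonds have no run term, and blue squares leave out male replicate 39. Most diamonds lie right of the points (median 0.26 against 0.12) and the squares near 0 (0.04).

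Shuffling week 1 preference 100000 times within sex and run gave 2-sided permutation p-values for single genes on residuals. The slope of Fosb was 0.46 with a permutation p of 0.0263, and 0.27 with 0.16 without male replicate 39. Pim1 had 0.36 with 0.0531, or 0.038 where preference was shuffled over all animals, and 0.13 with 0.419 without that animal. Fos had 0.39 with 0.118 (0.24 with 0.343 without it) and Nptx2 0.32 with 0.272 (-0.03 with 0.928). Npas4 had 0.32 with 0.266, Arc 0.30 with 0.257 (0.15 with 0.582 without that animal), Egr1 0.24 with 0.293, Nr4a1 0.14 with 0.495 and Junb 0.13 with 0.453. These 9 permutation p-values were not adjusted, so the value of Fosb stands beside 8 others.

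Within single runs the slopes did not keep 1 direction over the list. The median was 0.25 in run 1, 0.03 in run 2, 0.52 in run 3 and -0.09 in run 4, with 32, 20, 32 and 14 of 38 positive. Fosb was positive in each, at 0.39, 0.33, 0.94 and 0.70, whereas Fos was at 0.54, -0.56, 1.54 and 0.42. The test of a difference of the slope between runs called 0 members and 0.0123% of all genes, with 3 members (Pim1, Btg2 and Maff) and 7.52% of genes at an unadjusted p under 0.05. The 8 animals with the highest week 1 preference had both high and low levels, with scores ranked from 4 to 75 of 84. Male replicate 30, at 0.739, had 17.8 CPM of Fos and rank 75. Female replicate 6, at 0.632, had 55.5 CPM and rank 4.

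**Figure D5:**
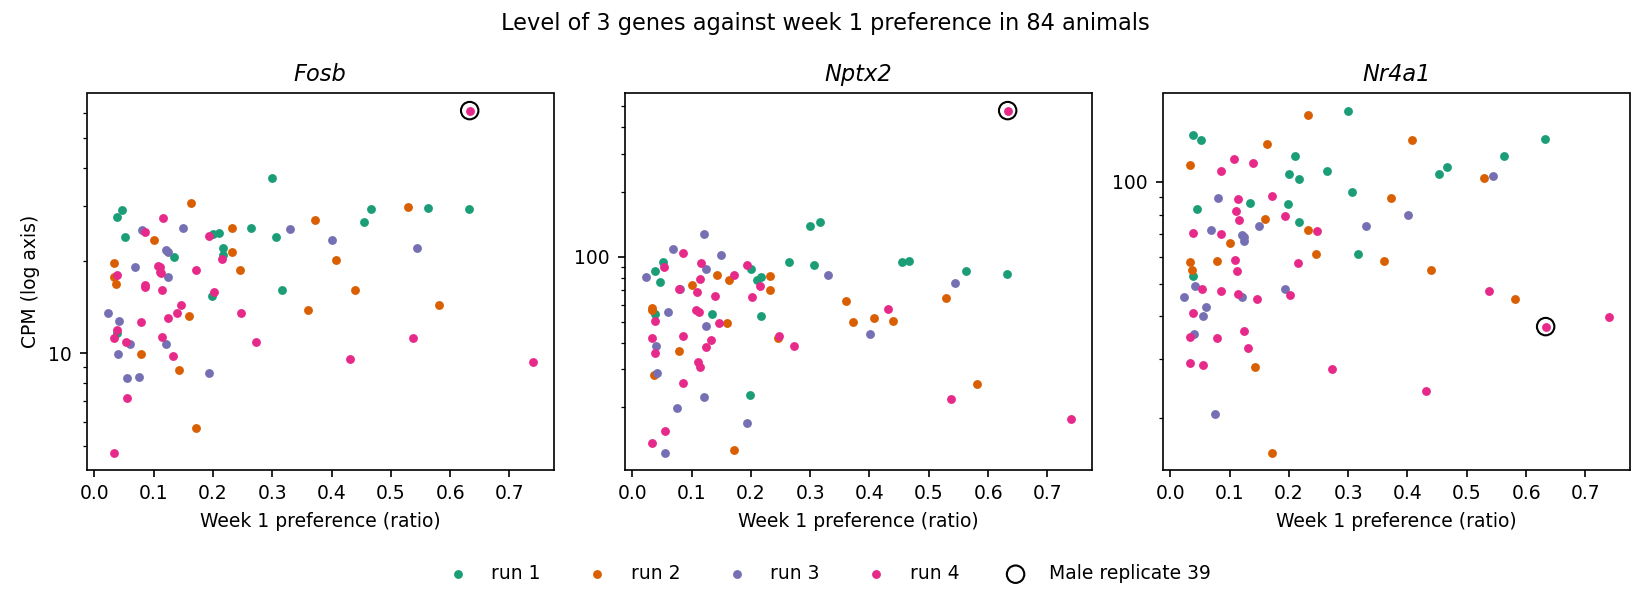
CPM of Fosb, Nptx2 and Nr4a1 on log axes against week 1 preference in the 84 animals, coloured by run, with male replicate 39 ringed. That animal has 61.3 CPM of Fosb and 479 of Nptx2, the highest in both, and 37.3 of Nr4a1, rank 72.

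In females the median slope on week 1 preference was 0.05, with 0 members called and 0 at an unadjusted p under 0.05, against 3.78% of all genes. The 3 smallest p were those of Dusp5 (0.51 ± 0.29 SE), Atf3 (0.46 ± 0.32 SE) and Rgs2 (-0.21 ± 0.16 SE). In males it was 0.23, with 0 called (0.0123% of all genes) and 11 at an unadjusted p under 0.05, against 5.1% of all genes. These were led by Fosb (0.84 ± 0.25 SE), Pim1 (0.84 ± 0.25 SE) and Nptx2 (1.14 ± 0.36 SE), and Fos had 0.74 ± 0.25 (SE). Without male replicate 39 the median was 0.11, 0 were called, and 2 had an unadjusted p under 0.05 (2.95% of all genes), Arl5b and Dusp1. Nptx2 was then at -0.29. The sex by week 1 term called 0 members and 0 genes, with 1 member and 4.8% of all genes at an unadjusted p under 0.05. It was Rgs2 (0.47 ± 0.23 SE, males minus females, p 0.0456, adjusted p 0.952).

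In week 13, the week before tissue was taken, 0 members and 0 genes were called for preference, and 4 members had an unadjusted p under 0.05, where 11% of all genes did. They were Rgs2 (-0.24 ± 0.10 SE), Nptx2 (0.55 ± 0.24 SE), Pim1 (0.36 ± 0.16 SE) and Jun (0.29 ± 0.14 SE), with adjusted p of 0.422 to 0.443. Fos had 0.05 ± 0.21 (SE) and Fosb 0.25 ± 0.17 (SE). For preference averaged over the weeks 0 members and 0 genes were called and Rgs2 alone had an unadjusted p under 0.05 (-0.31 ± 0.13 SE), against 4.15% of all genes. With the single weeks 2 to 12 in place of week 1, the median slope was between -0.06 in week 5 and 0.17 in week 2.

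Between the sexes 0 of the 38 genes were called, against 0.0858% of all genes, and 29 of 38 were lower in males with a median of -0.07. The 3 with an unadjusted p under 0.05, against 4.34% of all genes, were Ier2 (-0.34 ± 0.11 SE), Atf3 (-0.33 ± 0.14 SE) and Dusp1 (-0.22 ± 0.10 SE), all with an adjusted p of 0.95. DESeq2 and limma-voom called 0 as well (0.098% and 0.0797% of all genes), with 3 and 2 under 0.05 (4.85% and 3.93%). Fos (26.1 CPM in females and 25.5 in males, as medians) and Fosb (16.8 and 18.3) had ranges that overlapped almost whole.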

How the data were processed

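The authors deposited raw counts per gene, not normalized per the labels, from stranded poly(A) libraries of laser-dissected tissue with RNA quality scores above 7. The submitters' processing notes name FastQC, STAR, featureCounts 1.6.0 of Subread, DESeq2 and the GRCm38 (mm10) genome. Which strand setting and annotation release were used is not given in the sources used here. Jun, Tiparp and Pim1 overlap a gene on the opposite strand, so reads of both may not be told apart there. Not used were 3 columns of undetermined reads and 5 that are empty. Titles gave the runs and characteristics gave sex and weekly drinking.

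Low genes were left out by edgeR's filterByExpr, grouped by sex. It asks for the CPM equal to 10 counts at the median library size in a minimum number of libraries, and 15 counts in total. After TMM scaling, edgeR 4.0.16 (R 4.3.3) fitted robust quasi-likelihood models with sex and, for preference, run as terms, and a gene was called at an adjusted p under 0.05. SE was derived from F. Log2 CPM used a prior count of 2, and correlations and permutations numpy and scipy 1.17.1. The fit for week 1 was tested on simulated data, with 6 false calls. Alternatives, with DESeq2 1.42.0 and limma 3.58.1, are in the closing section. Library totals limit the precision of low genes, and SE covers the spread between animals.

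Full values were given to 7 well-known genes, every gene called and the 3 smallest p per comparison, at most 3 called genes of other lists (more where a count is spelled out), the 10 most similar genes, and the 5 highest and 3 lowest pairs. The genes, lists and tests were chosen with earlier results of these data known. Replicate numbers follow the order of listing. Each library is a separate mouse.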

Additional observations from a re-analysis of the deposited data

How the results depend on the processing

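Over the runs, the 27 members called became 0 in females alone and 6 in males alone, where fewer animals were tested, and 22 with no filter (8.79% of genes), 28 with DESeq2 (24.3%) and 26 with limma-voom (19.7%). Calls of 0 for week 1, week 13 and mean preference and for sex held in every alternative run. Some single slopes, none of them called, changed sign, and the cause was not tested. Without male replicate 39 these were, on week 1 preference, Nptx2 in all animals (-0.080, and -0.025 in the shuffled orders) and in males (-0.285), and Gadd45b (-0.008) and Pim1 (-0.024) between the sexes; Fos in week 13 (-0.040), Egr1 for mean preference (-0.020) and Fosb by sex (-0.092). With limma-voom they were Fos in females (-0.150), Npas4 in week 13 (0.072) and for mean preference (0.072), Egr1 for mean preference (-0.034) and Fosb by sex (-0.027). With no run term they were Junb (0.258) and Arc (0.352) in females, Npas4 in week 13 (0.010) and Junb for mean preference (-0.007). With ranks they were Junb (0.056) and Arc (0.185) in females, Junb (0.040), Npas4 (0.052) and Nr4a1 (0.035) in week 13, and Npas4 (0.081) and Nr4a1 (0.041) for mean preference. With intake they were Nr4a1 in week 1 (-0.033) and Npas4 (0.089) and Nr4a1 (0.000) in week 13. Npas4 for mean preference was 0.003 with DESeq2 size factors, 0.004 with no filter and 0.004 with DESeq2. The terms for the transporters and the fits without the 9 libraries low in Slc17a7 were chosen after seeing the data. Also not planned were the run fits in each sex alone and with week 1 preference as a term. The same holds for the other single weeks in place of week 1. No paired analysis was possible because replicate numbers follow the order of listing and pair no animals.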
